A study of Mus musculus with 6 samples.

Results

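Glycogen synthesis and breakdown genes were read in the soleus of StarD7 mKO and WT mice, a calf muscle that holds posture and contains both slow and fast fibres. The 9 genes were chosen by name, with earlier results of these data known. They are the enzymes of synthesis Gys1 and Gbe1, the phosphorylase Pygm, the phosphorylase kinase subunits Phka1, Phkb and Phkg1, the phosphatase targeting subunits Ppp1r3a and Ppp1r3c, and the phosphoglucomutase family gene Pgm2. All 9 were found among the 43074 gene names of each table, and all 9 passed the filter of 1 TPM in at least 3 libraries that left 12301 genes to test. The mKO group held 3 libraries from mice with a knockout of StarD7, a phosphatidylcholine transfer protein that serves mitochondria, and the WT group held 3 libraries from wild-type mice. The series text counted 3 per group. Strain, age, sex, treatment and the way the deletion was made, including any Cre line, are not stated in the sources, and the labels do not spell out the m of mKO. No label ties a library to an animal, so the p-values reflect how far these libraries spread.

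Glycogen is the branched store of glucose that muscle draws on during contraction. Glycogenin starts the chain, glycogen synthase extends it from UDP-glucose, and the branching enzyme adds its side chains. Glycogen phosphorylase releases glucose 1-phosphate from the chain ends after phosphorylase kinase, a complex of alpha, beta, gamma and delta subunits that responds to calcium, has phosphorylated it. Protein phosphatase 1, brought to the glycogen particle by targeting subunits, reverses these phosphorylations and so favours synthesis. Fast fibres generally hold more phosphorylase than slow fibres.

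The unit is TPM, a level per gene length, expressed as a share of all transcripts in the library. Whole reads recovered from the tables came to 42928774 to 47404918 per mKO library and 47171355 to 51287999 per WT library. Stard7 itself stood at 21.8, 21.3 and 34.6 TPM in the mKO libraries, against 87.5, 95.4 and 94.99 TPM in the WT libraries. The share of TPM held by genes of the mitochondrial genome was 48.0% ± 1.05 in mKO and 43.6% ± 1.49 in WT (SD, n = 3 each), and a larger share for them lowers every other gene on this scale. Slow and fast fibre markers were all above 0 in every library, though the fast marker Mybpc2 was at 0.324 and 0.356 TPM in mKO replicates 1 and 2. Myh7, the slow myosin heavy chain, was at 2889 to 4281 TPM in mKO and 2688 to 3532 TPM in WT.

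The muscle glycogen phosphorylase fell in mKO, as did the beta subunit of its kinase and a targeting subunit of the opposing phosphatase, while glycogen synthase and the branching enzyme were not called. Of the 9 genes, Pygm, Phkb and Ppp1r3a fell and none rose (adjusted p under 0.05, limma), where 0.52% of all genes tested were called, 0.423% as lower and 0.0976% as higher. In 5 genes (Pygm, Phka1, Phkb, Phkg1 and Ppp1r3a) every mKO library lay below every WT library, which held for 10.3% of all genes. In Gbe1 alone every mKO library lay above every WT library, which held for 5.67% of all genes. The median log2 fold change of the 9 genes was −0.34, against −0.01 over all genes tested. Since the genes were chosen with earlier results known, these shares and this median describe the list and do not test it. Fold changes are mKO minus WT of log2(TPM + 1), a scale that slightly understates changes of low genes.

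**Figure D1:**
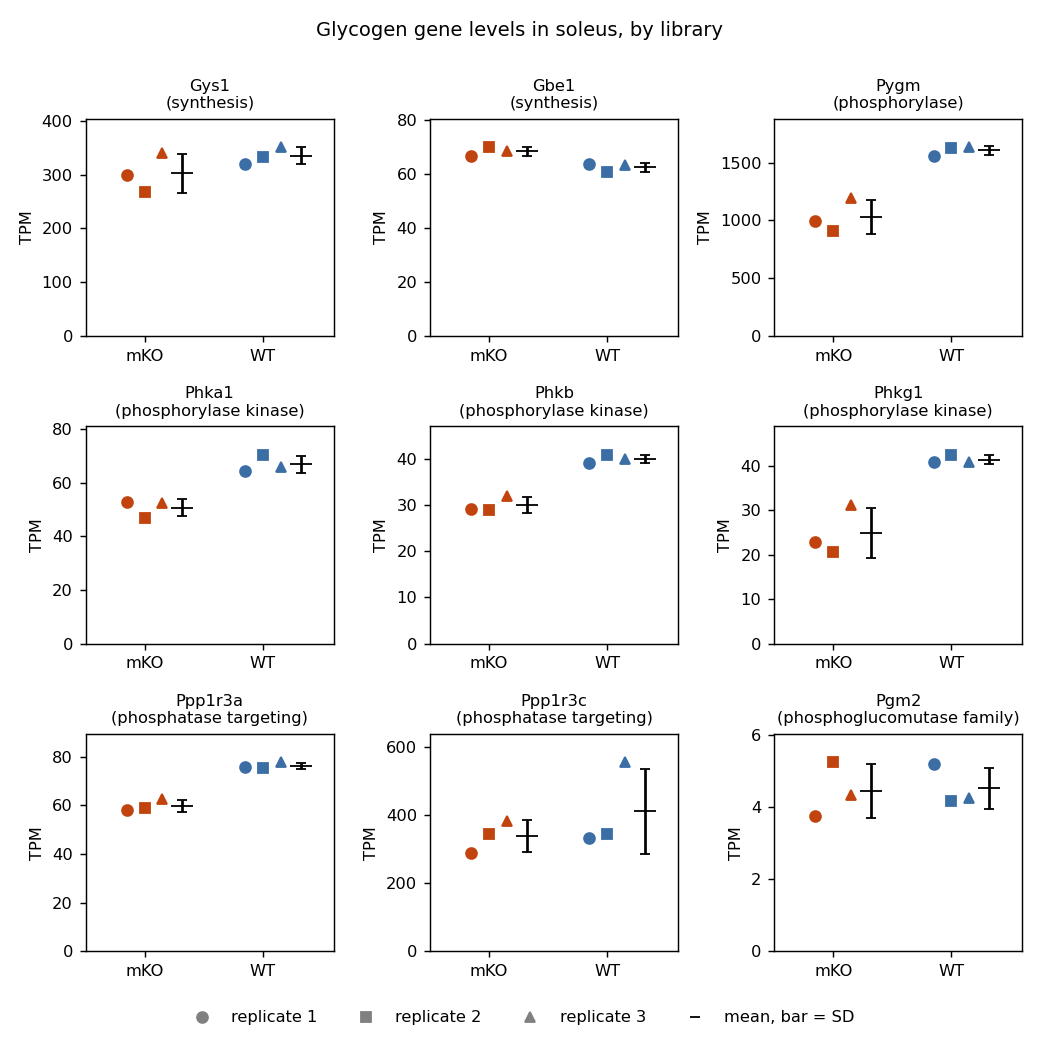
TPM of each of the 9 genes in every library (points, with a shape for each replicate number), mKO at left and WT at right of each panel, with the group mean and SD (n = 3) beside the points. Pygm, Phka1, Phkb, Phkg1 and Ppp1r3a have no mKO point as high as a WT point, and Gbe1 shows the opposite order.

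Pygm, the muscle glycogen phosphorylase and the most abundant of the 9 transcripts, stood at 994, 904 and 1190 TPM in the mKO libraries, against 1557, 1623 and 1634 TPM in the WT libraries. The groups did not overlap, and the mKO libraries were spread more widely than the WT libraries. The mean was 1030 ± 146 TPM in mKO and 1605 ± 41.3 TPM in WT (SD, n = 3 each), so that mKO held 64.2% of the WT level. In limma the call was at −0.65 on the log2 scale (SE 0.09, adjusted p = 0.0395). Pygm made up 54.8%, 51.7% and 55.0% of the summed TPM of the 9 genes in the mKO libraries, against 62.3%, 62.5% and 57.7% in the WT libraries.

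Phosphorylase kinase, the enzyme that switches phosphorylase on, stood lower in every mKO library for each of its 3 subunits named here, of which Phkb alone was called. Phkb, the beta regulatory subunit, stood at 29.1, 28.9 and 31.9 TPM in mKO, against 39.1, 40.9 and 40.0 TPM in WT. Its mean was 29.96 ± 1.70 TPM in mKO and 40.0 ± 0.909 TPM in WT (SD, n = 3 each), and limma gave −0.41 on the log2 scale (SE 0.06, adjusted p = 0.0395). Both groups were tight and apart from each other. Phka1, the muscle form of the alpha regulatory subunit, stood at 52.8, 47.0 and 52.4 TPM in mKO, against 64.4, 70.5 and 66.0 TPM in WT. It narrowly missed the threshold (log2 fold change −0.39, SE 0.06, 95% interval −0.54 to −0.25, adjusted p = 0.0515, limma).

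Phkg1, the muscle form of the catalytic gamma subunit, stood at 22.9, 20.7 and 31.2 TPM in mKO, against 40.9, 42.5 and 40.8 TPM in WT. The mKO replicate 3 value lay between those of the other mKO libraries and WT. The log2 fold change was the largest of the 9 in size at −0.73 (SE 0.13, 95% interval −1.04 to −0.43) and did not pass the test (adjusted p = 0.0685, limma). Without mKO replicate 3 it was −0.90 (adjusted p = 0.00197), and limma-voom on the recovered reads gave −0.71 (adjusted p = 0.0489). Of the exon bases of Phkg1, 9.7% overlap exons of Sumf2 on the opposite strand, a gene at 3.92 to 4.91 TPM, and the sources do not state whether counting used strand.

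Ppp1r3a, the muscle subunit that anchors protein phosphatase 1 to glycogen and to the sarcoplasmic reticulum, stood at 58.1, 59.1 and 62.8 TPM in mKO, against 75.8, 75.4 and 77.7 TPM in WT. All mKO libraries were lower, and the spread within either group was small. Its mean was 59.995 ± 2.47 TPM in mKO and 76.3 ± 1.26 TPM in WT (SD, n = 3 each), and limma gave −0.34 on the log2 scale (SE 0.05, adjusted p = 0.0414). Ppp1r3c, the more widely expressed targeting subunit also called PTG, stood at 289, 344 and 382 TPM in mKO, against 332, 345 and 554 TPM in WT. The groups overlapped and WT replicate 3 stood apart from the rest. Its log2 fold change of −0.25 (SE 0.19, 95% interval −0.69 to 0.20, adjusted p = 0.718, limma) became −0.01 without WT replicate 3 (adjusted p = 0.985). The stress-induced gene Atf3 was at 15.2 to 29.9 TPM in mKO and at 21.7, 21.8 and 55.5 TPM in WT replicates 1, 2 and 3. It was thus highest in the same library, as were Hspa1a and Hspa1b of the same list of handling genes. Fos, Fosb, Junb and Egr1 of that list were not, although within WT alone Fos too was highest in replicate 3. The part of these genes in the Ppp1r3c value was not tested.

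The promoters of the 3 called genes, with that of the uncalled synthase gene Gys1 for comparison, are shown because genes that differed together in level can be compared in the sequence before their start. Each run is the 250 bases before the start of the gene from RefSeq (GRCm38.p6, an older build than the GRCm39 of the submitters' notes), read 5′ to 3′ on the strand of the gene. Capitals mark each E-box, a 6-letter site of the form CANNTG that myogenic factors can bind, and the single 10-letter MEF2 motif. The regions are chr19:6384158-6384407 (+) for Pygm, chr8:85840738-85840987 (+) for Phkb, chr6:14755275-14755524 (−) for Ppp1r3a and chr7:45434589-45434838 (+) for Gys1.
Pygm: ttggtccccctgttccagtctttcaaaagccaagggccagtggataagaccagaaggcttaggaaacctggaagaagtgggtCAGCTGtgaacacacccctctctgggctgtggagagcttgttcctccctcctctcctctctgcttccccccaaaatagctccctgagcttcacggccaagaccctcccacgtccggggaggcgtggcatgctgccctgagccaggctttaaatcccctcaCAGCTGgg
Phkb: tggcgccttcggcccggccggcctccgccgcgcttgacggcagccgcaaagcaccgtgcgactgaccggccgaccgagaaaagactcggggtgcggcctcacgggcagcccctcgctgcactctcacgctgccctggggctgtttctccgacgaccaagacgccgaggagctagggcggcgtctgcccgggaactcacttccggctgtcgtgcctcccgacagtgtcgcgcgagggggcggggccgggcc
Ppp1r3a: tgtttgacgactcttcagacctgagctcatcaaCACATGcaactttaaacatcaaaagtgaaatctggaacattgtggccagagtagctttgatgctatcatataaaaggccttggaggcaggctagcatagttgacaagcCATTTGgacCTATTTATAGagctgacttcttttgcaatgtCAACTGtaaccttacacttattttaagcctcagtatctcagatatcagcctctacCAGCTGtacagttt
Gys1: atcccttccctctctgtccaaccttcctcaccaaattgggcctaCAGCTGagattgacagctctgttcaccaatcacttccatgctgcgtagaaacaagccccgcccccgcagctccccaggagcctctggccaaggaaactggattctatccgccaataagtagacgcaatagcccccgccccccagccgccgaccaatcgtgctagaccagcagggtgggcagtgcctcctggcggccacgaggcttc

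None of the motifs searched was found in all 3 called genes in these windows. Ppp1r3a had 4 E-boxes and the MEF2 motif, Pygm had 2 E-boxes, Gys1 had 1, and Phkb had none. The E-box is its own reverse complement, and so is the MEF2 pattern, so both strands were searched at once, and the MEF2 motif shared no base with an E-box. An E-box stood in 8 of the 9 promoters, compared with 66.2% of all 32851 promoters of this length and 58.0% of the 12034 promoters of tested genes. The MEF2 motif stood in 1 of 9, compared with 2.9% of all and 1.9% of those of tested genes. The Phkb promoter was the richest in G and C of the 9 at 73.2%, and that of Ppp1r3a the poorest at 40.4%. GGGCGG, searched on both strands and overlapping neither of the other motifs in the 4 runs shown, stood in the promoters of Gys1, Pgm2, Phka1 and Phkb. It stood in 32.7% of all promoters and in 57.2% of those of tested genes. CACGTG, a form of the E-box, stood in the promoter of Ppp1r3c alone among the 9, compared with 6.0% of all promoters and 8.4% of those of tested genes.

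Gys1, the muscle glycogen synthase, stood at 299, 268 and 340 TPM in mKO, against 320, 333 and 351 TPM in WT. The groups overlapped, since mKO replicate 3 lay within the WT range. Its log2 fold change was −0.15 (SE 0.09, 95% interval −0.35 to 0.04, adjusted p = 0.590, limma). Of its exon bases, 6.5% overlap exons of Ruvbl2 on the opposite strand, a gene at 17.5 to 20.3 TPM. Gbe1, the branching enzyme, stood at 66.5, 69.8 and 68.5 TPM in mKO, against 63.5, 60.6 and 63.1 TPM in WT. It was the only gene of the 9 whose mKO libraries were all higher, by a small amount that did not pass the test (log2 fold change 0.13, SE 0.05, 95% interval 0.02 to 0.24, adjusted p = 0.397, limma).

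Pgm2 was the least abundant of the 9, at 3.77, 5.25 and 4.34 TPM in mKO and 5.19, 4.17 and 4.25 TPM in WT, from 200 to 311 reads per library. The groups overlapped throughout (log2 fold change −0.03, SE 0.12, 95% interval −0.31 to 0.26, adjusted p = 0.970, limma). The names Pgm1 and Pgm2 have been exchanged in mouse, and RefSeq lists each as an older name of the other. The values came out as whole reads with the exon length of the Pgm2 entry on chromosome 5, whose human counterpart acts mainly on pentose phosphates. Pgm1, which interconverts glucose 1-phosphate and glucose 6-phosphate, was the abundant form, at 174, 153 and 159 TPM in mKO and 202, 219 and 208 TPM in WT. The groups of Pgm1 did not overlap, and it narrowly missed the threshold (log2 fold change −0.37, SE 0.06, adjusted p = 0.0535, limma).

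By level per gene length, Pygm led in both groups, followed by Ppp1r3c and Gys1, whose ranges overlapped each other within mKO and within WT. Gbe1 changed its place. Its mKO range of 66.5 to 69.8 TPM lay above those of Ppp1r3a (58.1 to 62.8 TPM) and Phka1 (47.0 to 52.8 TPM), whereas its WT range of 60.6 to 63.5 TPM lay below both (75.4 to 77.7 and 64.4 to 70.5 TPM). Phkb and Phkg1 overlapped within each group, and Pgm2 was lowest in both.

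**Figure D2:**
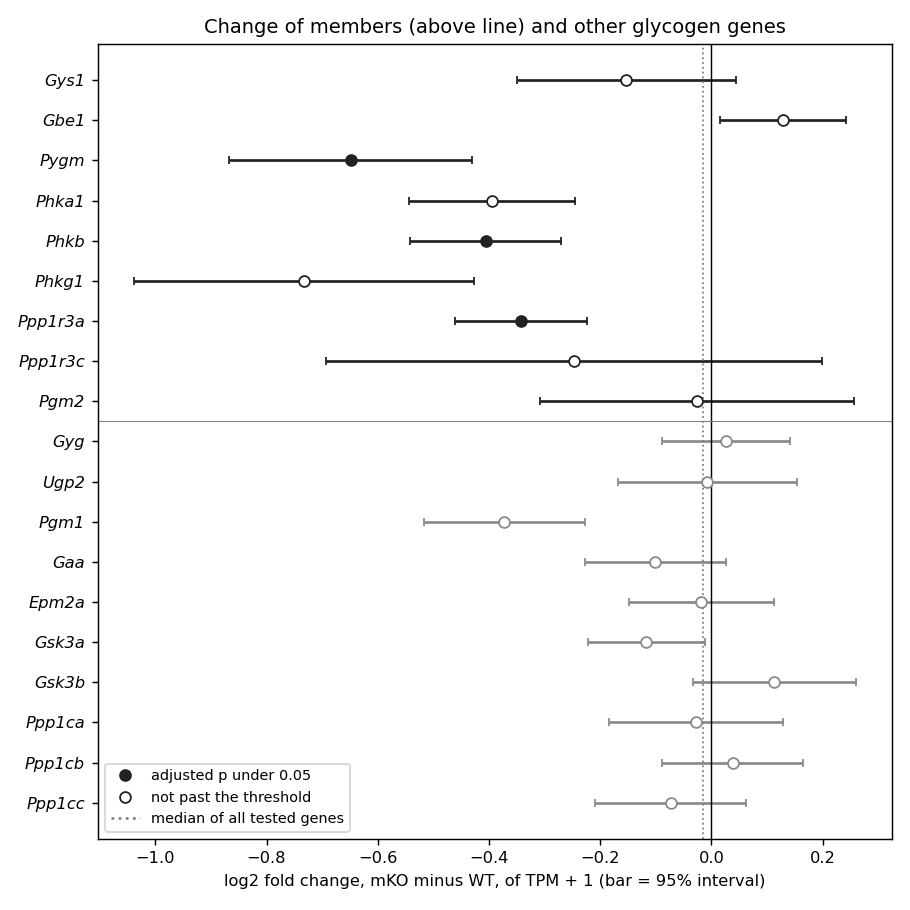
Log2 fold change, mKO minus WT, of TPM + 1 with its 95% interval for the 9 genes (above the line) and for 10 other glycogen genes at a mean of at least 20 TPM (below the line). Filled points passed the adjusted p of 0.05 (Pygm, Phkb and Ppp1r3a), open points did not, and the dotted line is the median of all genes tested.

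Of the other genes of glycogen metabolism, 23 were in the tables and 19 were tested, and none was called by limma in either direction, while 3 of the 19 were lower and none higher at an unadjusted p under 0.05, which 10.7% of all genes passed in either direction. Their median log2 fold change was −0.02. Gyg, the glycogenin that primes the chain, averaged 418 ± 16.2 TPM in mKO and 411 ± 11.1 TPM in WT, and Ugp2, which makes UDP-glucose, averaged 741 ± 64.9 TPM in mKO and 743 ± 27.7 TPM in WT (SD, n = 3 each). Gaa, which degrades glycogen in lysosomes, had a log2 fold change of −0.10, and Epm2a, the glycogen phosphatase laforin, of −0.02.

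Gsk3a and Gsk3b, the kinases that inhibit glycogen synthase, had log2 fold changes of −0.12 and 0.11. The catalytic subunits of protein phosphatase 1, which Ppp1r3a and Ppp1r3c direct to glycogen, had log2 fold changes of −0.03 for Ppp1ca, 0.04 for Ppp1cb and −0.07 for Ppp1cc. None of these 5 was called. Gsk3a, like Pgm1, was among the 3 genes lower at an unadjusted p under 0.05.

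Ratios of genes within a library do not depend on how the library was scaled. The question was whether the genes differed from each other in how far they were lower, and 7 ratios and 5 shares were compared, for which the exact two-sided permutation test of 3 against 3 can give no p below 0.1. The ratio of Pygm to Gys1 was 3.33, 3.37 and 3.51 in the mKO libraries, against 4.86, 4.87 and 4.65 in the WT libraries. All mKO ratios were lower, and both groups were tight (3.40 ± 0.0940 in mKO and 4.79 ± 0.123 in WT, SD, n = 3 each, exact permutation p = 0.1, 0.24 after Benjamini-Hochberg adjustment over the 12). On the log2 scale the difference in this ratio was −0.50. The ratio of Gbe1 to Gys1 was 0.222, 0.260 and 0.202 in mKO, against 0.198, 0.182 and 0.180 in WT. All mKO ratios were higher, by 0.28 on the log2 scale (exact permutation p = 0.1, adjusted 0.24). Without mKO replicate 2 the difference was 0.19 (exact permutation p = 0.2, unadjusted).

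Within phosphorylase kinase, the gamma subunit stood lower in mKO relative to the alpha subunit than in WT. The ratio of Phkg1 to Phka1 was 0.433, 0.439 and 0.596 in mKO, against 0.636, 0.603 and 0.619 in WT (exact permutation p = 0.1, adjusted 0.24). Replicates 1 and 2 of mKO were well below WT, and replicate 3 was just below it. The ratio of Phkb to Phka1 overlapped between groups, at 0.592 ± 0.0349 in mKO and 0.598 ± 0.0150 in WT (SD, n = 3 each, exact permutation p = 1, adjusted 1). The ratio of Pygm to Phkg1, the kinase's substrate and its catalytic subunit, also overlapped, at 41.8 ± 3.17 in mKO and 38.7 ± 1.10 in WT (exact permutation p = 0.3, adjusted 0.6). The ratio of Ppp1r3a to Ppp1r3c (exact permutation p = 0.8, adjusted 0.873) and that of Pgm2 to Gys1 (p = 0.5, adjusted 0.75) overlapped as well.

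**Figure D3:**
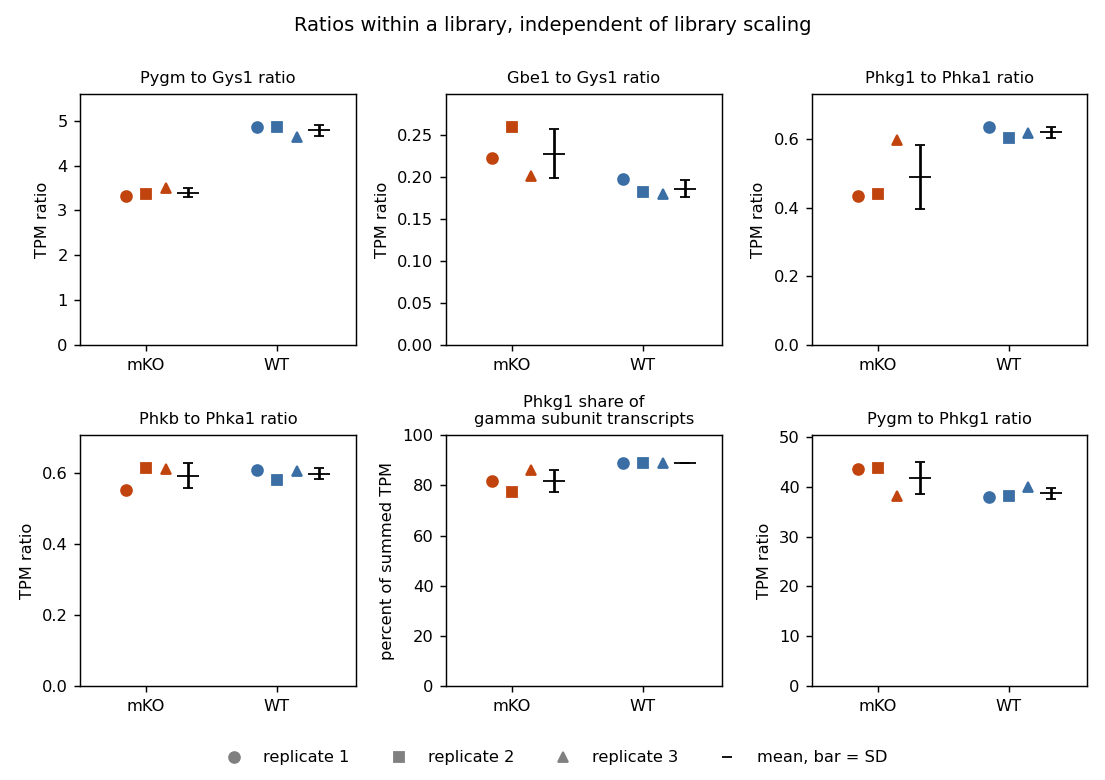
Ratios of TPM between genes within a library, and the share of Phkg1 in the TPM of Phkg1 and Phkg2, for every library (points, with a shape for each replicate number), mKO at left and WT at right, with the group mean and SD (n = 3). The ratio of Pygm to Gys1 is 3.33 to 3.51 in mKO and 4.65 to 4.87 in WT, whereas those of Phkb to Phka1 and of Pygm to Phkg1 overlap.

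The muscle forms of phosphorylase, of synthase and of the alpha and gamma kinase subunits made up most of their families in every library. Ppp1r3a was a minor part of the targeting subunits. Phkg1 made up 81.6%, 77.3% and 86.3% of the TPM of the gamma subunits Phkg1 and Phkg2 in mKO, against 88.8%, 88.9% and 88.8% in WT. All mKO shares were lower, with a mean difference of −7.13 percentage points (exact permutation p = 0.1, adjusted 0.24), while Phkg2, the form known from liver, had a log2 fold change of 0.04. Pygm made up 99.0%, 98.5% and 99.3% of the phosphorylase TPM of Pygm, Pygb and Pygl in mKO, against 99.5%, 99.5% and 99.5% in WT (exact permutation p = 0.1, adjusted 0.24). The mean difference was −0.569 percentage points, and −0.359 without mKO replicate 2. Pygb, the brain form, averaged 9.66 ± 2.74 TPM in mKO and 7.04 ± 0.606 TPM in WT and was not called (adjusted p = 0.477, limma). Pygl, the liver form, and the liver synthase Gys2 were below the filter, and Gys1 held 99.96% or more of synthase TPM in each library. The share of Phka1 in the alpha subunits overlapped, at 92.7% ± 1.35 in mKO and 93.8% ± 0.0336 in WT (SD, n = 3 each, exact permutation p = 0.4, adjusted 0.686). So did the share of Ppp1r3a in the targeting subunits, at 14.9% ± 1.34 in mKO and 16.0% ± 3.31 in WT (exact permutation p = 0.8, adjusted 0.873).

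The mKO libraries were not alike in how far the genes were lower. Over the 9 genes the median level was 76.1%, 77.5% and 82.3% of the WT mean in mKO replicates 1, 2 and 3. Of the mKO libraries, replicate 3 held the highest value in 6 of the 9 genes. Pygm reached 74.2% of the WT mean in that library, against 62.0% and 56.3% in mKO replicates 1 and 2, and Phkg1 reached 75.3%, against 55.2% and 49.9%. Some other lists had the same high library. Within mKO, replicate 3 was highest for 11 of the 14 fast fibre markers and 13 of the 17 glycolysis genes. The same held for all 5 erythroid markers and all 4 smooth muscle markers. It held for 3 of the 5 endothelial markers, 6 of the 23 other glycogen genes and 1 of the 7 handling genes. Replicate 3 was highest for none of the 12 slow fibre, 8 macrophage, 6 fibroblast, 5 adipocyte and 5 Schwann cell markers.

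**Figure D4:**
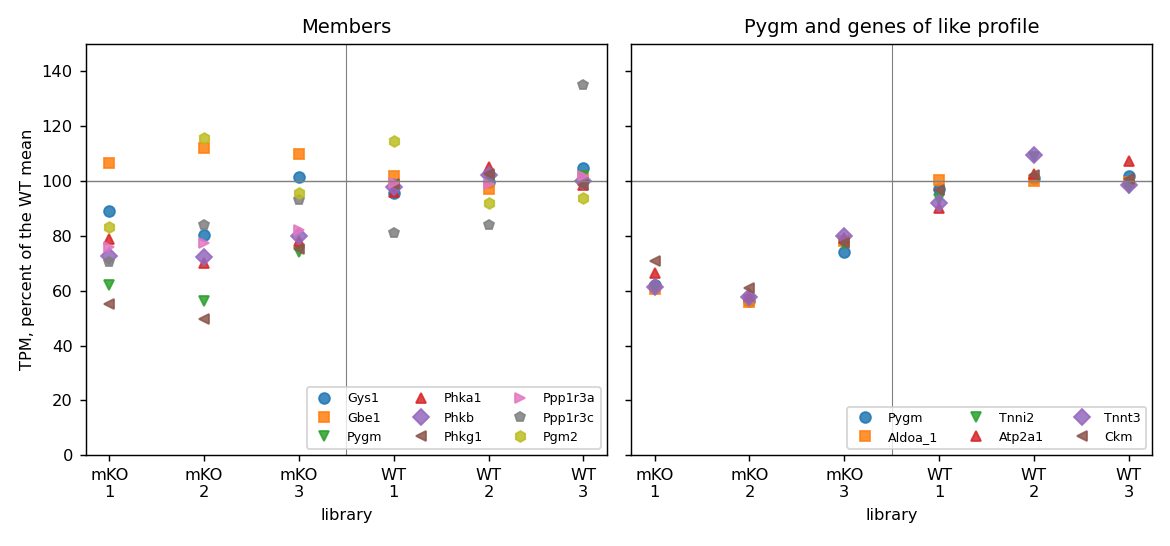
TPM in each library as a percent of the WT mean, for the 9 genes (left) and for Pygm with the 5 genes of most like profile (right), mKO libraries left of the vertical line and WT libraries right of it. Pygm is at 56.3% to 74.2% in mKO, with its highest mKO value in replicate 3.

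The genes whose profile over the 6 libraries was most like that of each called gene were found by the root mean square difference of centred log2(TPM + 1) values, among 7716 genes at a mean of at least 5 TPM. For Pygm these were Aldoa (its numbered entry Aldoa_1), Tnni2, Atp2a1, Tnnt3 and Ckm, at differences of 0.0416 to 0.0729. They encode muscle aldolase, fast troponin I, the fast-fibre calcium pump, fast troponin T and muscle creatine kinase. For Phkb they were Ryr1, Rpl3l, Rftn1, Pfkm and Tpi1, at 0.0279 to 0.0412, which include the calcium release channel and 2 glycolytic enzymes. For Ppp1r3a they were Sar1b, Ldha, Kcnj12, Cuedc1 and Ptpn3, at 0.0200 to 0.0415. The likeness includes the difference between the groups, is given as a description, and says nothing of shared control.

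Fibre type markers differed between the same libraries. All 14 fast fibre markers had every mKO library below every WT library, 6 of them were called lower, and their median log2 fold change was −0.62. They were lower by unequal amounts. The mKO mean was 0.382% of the WT mean for Mybpc2, 1.96% for Pvalb, 2.21% for Myh4, 5.47% for Actn3 and 9.21% for Myh1. Of these, Mybpc2, Pvalb and Actn3 were called, whereas Myh4 (adjusted p = 0.0576, limma) and Myh1 (adjusted p = 0.0515, limma) were not. Myh4 was spread widely in WT, at 53.9, 530 and 635 TPM, and Myh1 in mKO, at 113, 82.7 and 635 TPM. The remaining fast markers were at 46.8% (Myoz1) to 77.9% (Casq1). Their summed level was 28080 to 35762 TPM in mKO and 46120 to 52757 TPM in WT, and none was at 0 in any library. Of the 12 slow fibre markers 1 rose (Pln, the inhibitor of the calcium pump), the summed level being 19534 to 27896 TPM in mKO and 18100 to 23516 TPM in WT. The median log2 fold change of these 12 was 0.26, and 1 of them was below 0. At an unadjusted p under 0.05 (limma) 3 were higher and 0 lower, where 10.7% of all genes passed in either direction. Every mKO library lay above every WT library in Pln alone, which held for 5.67% of all genes. In bulk muscle, fewer fibres of a type and less RNA per fibre cannot be told apart, and the part of fibre makeup in the glycogen gene values was not tested. Of 16 core glycolysis genes tested, 2 fell (Pfkm and Ldha) and none rose, with a median of −0.24 against −0.34 for the 9 glycogen genes, which were not tested against each other. In 9 of the 16 every mKO library lay below every WT library, against 10.3% of all genes. Aldoa, a further name of that list, is split into numbered entries in the tables and was not counted in it.

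Markers of other cells overlapped between the groups in summed level except those of endothelium. The 5 endothelial markers summed to 190 to 196 TPM in mKO and 202 to 207 TPM in WT, none of them was called, and their part in the glycogen gene values was not tested. The summed levels of macrophage, fibroblast, adipocyte, Schwann cell, erythroid and smooth muscle markers and of handling genes overlapped, no gene of these lists was called, and none was at 0 in any library. Among the 6 handling genes tested, the median log2 fold change was 0.32. The immediate early genes Fos and Egr1 were higher in every mKO library, which held for 5.67% of all genes. The other handling genes tested overlapped between groups, with log2 fold changes of 0.51 for Junb, 0.14 for Hspa1b, −0.04 for Hspa1a and −0.37 for Atf3. Fos stood at 11.7, 11.7 and 13.4 TPM in mKO, against 7.70, 6.34 and 10.98 TPM in WT (adjusted p = 0.280, limma). Egr1 stood at 8.58, 8.95 and 7.73 TPM in mKO, against 6.96, 3.38 and 4.31 TPM in WT (adjusted p = 0.222, limma). The part of handling in the glycogen gene values was not tested.

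The 3 calls were close to the threshold and were lost when any library other than mKO replicate 3 was left out. Pygm was not called without mKO replicate 1 (adjusted p = 0.175), mKO replicate 2 (0.0644), WT replicate 1 (0.109), WT replicate 2 (0.239) or WT replicate 3 (0.121). Phkb was likewise lost (0.173, 0.0884, 0.109, 0.259 and 0.121 in the same order), as was Ppp1r3a (0.175, 0.100006, 0.118, 0.248 and 0.122). Without mKO replicate 3 these 3 and Phkg1 were called, at adjusted p of 0.00279 for Pygm, 0.0259 for Phkb, 0.0360 for Ppp1r3a and 0.00197 for Phkg1 (limma).

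The scaling also mattered to the calls. After removal of the mitochondrial genome and rescaling of TPM, the median log2 fold change over all genes was 0.09, against −0.01 on the deposited scale, and none of the 9 was called. The log2 fold changes were then −0.53 for Pygm (adjusted p = 0.0982), −0.29 for Phkb (0.0982), −0.23 for Ppp1r3a (0.133), −0.28 for Phka1, −0.63 for Phkg1, 0.25 for Gbe1 (0.0982) and −0.04 for Gys1. Each of the 9 genes except Gbe1 lay below the median of all genes in that setting, with Ppp1r3c at −0.13 and Pgm2 at 0.0765. The distance from that median was not tested. Over all genes, 12 rose and 52 fell on the deposited scale (18.75% of calls higher), against 21 and 20 without the mitochondrial genome (51.22%) and 35 and 57 by limma-voom on recovered reads (38.04%).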

How the data were processed

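Each library came as a table that the authors deposited in TPM (transcripts per 1000000), with a name and a TPM column per the file headers. GRCm39 is the build that the submitters' processing notes name. Aligner, counter and strand setting are not given in the sources used here. RNA was poly(A)-selected and libraries were directional, per the labels' protocols. The members and gene lists were chosen with earlier results of these data known.

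Reads were recovered by multiplying TPM with the GENCODE M21 exon length and 1 factor for each library. For 93.12% of 22734 genes every library then came within 0.05 of a whole number. GENCODE M21 annotates GRCm38, so the build of the gene models behind the deposited values is not settled. Recovered reads came to between 42928774 and 51287999 per library. Same-group libraries differed by more than counting noise (chi-square over its degrees of freedom 19.6 to 37.6), and each was counted as a sample.

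Genes reaching 1 TPM in 3 or more libraries were tested on log2(TPM + 1) by limma-trend (R 4.3.3 with limma 3.58.1). Genotype was the sole term, with Benjamini-Hochberg adjustment over all 12301 and a threshold of 0.05. On simulated reads, 3 against 3, limma-trend recovered 56% of 100 genes changed by 0.5 on the log2 scale and 90% of 100 changed by 1, with 4 false calls among 11112 genes. The simulated reads took their spread between libraries from WT alone. In mKO the SD was wider for some genes, such as Pygm (146 against 41.3 TPM in WT). For others it was narrower, such as Ppp1r3c (47.0 against 125 TPM in WT). Recovery at a wider spread between libraries than the simulated reads had was not tested. Ratios and shares used exact two-sided permutation tests.

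Named genes were the 9 members, other glycogen genes that were called or had a mean of at least 20 TPM, and the 5 genes of most like profile to each called member at a mean of at least 5 TPM, leaving out predicted genes. Stard7, Atf3, Fos, Egr1, Myh7, Pln, Pfkm, Ldha, Pygb, Pygl, Phkg2, Gys2, Sumf2 and Ruvbl2 fall outside this rule and were added for a stated comparison. So were the fast markers Mybpc2, Pvalb, Myh4, Actn3, Myh1, Myoz1 and Casq1, and the handling genes Fosb, Junb, Hspa1a and Hspa1b. The list name Gyg1 was found as Gyg. Some genes that the rule would name are not reported here. Alternatives were other filters, a pseudocount of 0.1, other scalings, recovered reads, a replicate block and each library left out.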

Additional observations from a re-analysis of the deposited data

How the results depend on the processing

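The log2 fold changes of 8 of the 9 glycogen genes kept their sign in all 13 other settings. Pgm2, at −0.03 and uncalled, moved to 0.0765 without the mitochondrial genome and 0.0211 by limma-voom on recovered reads, and ranged from −0.128 to 0.0665 when 1 library was left out, with 0.0574 without WT replicate 1. The calls of Pygm, Phkb and Ppp1r3a held in 4 of 13 settings each, namely a mean of 1 TPM as the filter, the pseudocount of 0.1, limma-voom and without mKO replicate 3. Pygm ranged from −0.76 to −0.53 (adjusted p = 0.00279 to 0.239), Phkb from −0.45 to −0.29 (0.0259 to 0.259) and Ppp1r3a from −0.37 to −0.23 (0.0360 to 0.248). The number of the 9 genes called was 3 in the main test, 0 with no filter on low values, 0 with mitochondrially encoded genes left out, 0 with median-of-ratios scaling, 0 with a replicate block, and 0 to 4 when 1 library was left out. With no filter on low values the fold changes of the 9 genes were the same, with p-values adjusted over 24964 genes. Over all genes 64 were called, 6 with no filter, 41 with mitochondrially encoded genes left out, 21 with a replicate block, and 4 to 94 when 1 library was left out. The cause of these differences was not tested. Whether replicate numbers pair the libraries is not settled. Deviations of same-numbered libraries from their group means correlated at 0.095, 0.047 and 0.131 across genes. Those of differently numbered libraries correlated at −0.093 to 0.001, so each library correlated best with its own number. Under the block Pygm had an adjusted p of 0.0676, Phkb of 0.0916 and Ppp1r3a of 0.0888. Among ratios and shares, that of Phkb to Phka1 (−0.02) ranged from −0.0436 to 0.0338 when 1 library was left out, that of Ppp1r3a to Ppp1r3c (−0.10) from −0.323 to 0.0270, that of Pgm2 to Gys1 (0.12) from −0.0868 to 0.253, the share of Gys1 (−0.00435 points) from −0.0126 to 0.00668 and the share of Ppp1r3a (−1.08 points) from −2.98 to 0.00553. No other ratio or share changed direction in any setting run. At 3 libraries per group, an effect near 0.5 on the log2 scale is often missed, so an uncalled gene is not shown to be alike in both groups.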
